A study of Mus musculus with 4 samples.

Results

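De novo lipogenesis, the making of fatty acids from citrate and acetate, was followed through 10 genes named by a list: Fasn, Acaca, Acacb, Acly, Scd1, Scd2, Elovl6, Srebf1, Mlxipl and Thrsp. All 10 were found by symbol among the 32868 gene names of the deposited tables. The tables hold expression values from total RNA of the tibialis anterior, a fast-twitch muscle of the mouse shin, at postnatal day 21 in the strain C57BL/6. Of the 4 libraries, 2 were labelled Het (Nf1flox/+/Myf5+, with 1 floxed Nf1 allele) and 2 were labelled Nf1-KO (Nf1flox/flox/Myf5+, with 2 floxed alleles). Nf1 encodes neurofibromin, a brake on Ras signalling, and the series title names postnatal hypertrophic growth and metabolic balance of muscle as what Nf1 is needed for. In such crosses Myf5+ stands for a Cre driver of the muscle precursor lineage, which also gives rise to brown adipocytes. Both groups carry the driver and at least 1 floxed allele, so no group is free of either. The labels do not say whether replicates came from separate animals, and p-values then measure only the spread between these libraries.

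In this pathway ATP citrate lyase (Acly) makes acetyl-CoA, the acetyl-CoA carboxylases (Acaca, Acacb) turn it into malonyl-CoA, and fatty acid synthase (Fasn) builds palmitate from both. Elovl6 lengthens palmitate, and the stearoyl-CoA desaturases (Scd1, Scd2) add a double bond. Srebf1 and Mlxipl encode the transcription factors SREBP-1 and ChREBP, through which insulin and glucose raise these genes in liver and fat, and Thrsp (Spot 14) responds to thyroid hormone. Muscle makes little fat. There the carboxylase of the mitochondrial surface, encoded by Acacb, makes the malonyl-CoA that restrains the entry of fatty acids into mitochondria.

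Values were read as RPKM, reads scaled to gene length and to library depth, which can be compared between genes; the files name no unit, and this reading rests on the values. Depth, estimated from the steps between low values, was about 36500000 to 58100000 reads per library. Nf1 was 1.09 and 1.01 RPKM in Het and 0.89 and 0.85 RPKM in Nf1-KO, so no Nf1-KO library reached a Het library. Its log2 fold change was -0.18 with a limma adjusted p of 0.041, a call that was lost with unscaled values, with no filter, with a replicate block and when any 1 library was left out. On that scale, log2(RPKM + 1), the change of a low gene is understated: with a pseudocount of 0.1 the log2 fold change was -0.33 (adjusted p 0.045). The authors' deposited table gives Nf1 a log2 fold change of -0.38 with an adjusted p of 0.0026. The 5 myofibre genes Acta1, Ckm, Des, Myh4 and Myh1 summed to 31998 and 32134 RPKM in Het and 26582 and 26146 RPKM in Nf1-KO. At a limma adjusted p under 0.05, Acta1, Ckm and Myh4 were lower in Nf1-KO, and Des and Myh1 were higher. The 3 hepatocyte genes Alb, Apoa1 and Ttr summed to at most 0.07 RPKM.

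The starts of 3 members are shown because the genes differ in outcome: Fasn and Srebf1 fell in Nf1-KO and Acly did not pass the test. Each run is the 250 bases before a RefSeq start site (GRCm38.p6), on the minus strand and written 5′ to 3′. They lie at chr11:120824548-120824797 (Fasn), chr11:60210472-60210721 (1 of 3 starts of Srebf1) and chr11:100528001-100528250 (Acly). Capitals mark the letters CCAAT, the E-box core CANNTG, and the GC box GGGCGG, on either strand.
Fasn: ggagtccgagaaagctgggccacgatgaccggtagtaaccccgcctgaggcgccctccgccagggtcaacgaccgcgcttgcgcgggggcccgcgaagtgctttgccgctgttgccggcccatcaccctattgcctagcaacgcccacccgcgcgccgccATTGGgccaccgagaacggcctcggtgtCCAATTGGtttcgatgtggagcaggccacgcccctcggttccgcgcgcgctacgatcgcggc
Srebf1: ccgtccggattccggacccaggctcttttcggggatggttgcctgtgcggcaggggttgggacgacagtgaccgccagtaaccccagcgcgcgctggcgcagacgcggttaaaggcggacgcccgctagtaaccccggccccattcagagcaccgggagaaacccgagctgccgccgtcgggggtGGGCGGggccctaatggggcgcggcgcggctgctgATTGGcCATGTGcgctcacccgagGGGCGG
Acly: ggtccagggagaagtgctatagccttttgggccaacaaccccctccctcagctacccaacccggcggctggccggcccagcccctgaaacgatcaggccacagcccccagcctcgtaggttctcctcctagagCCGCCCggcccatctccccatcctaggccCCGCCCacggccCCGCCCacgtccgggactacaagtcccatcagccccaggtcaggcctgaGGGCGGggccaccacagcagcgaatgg
The Fasn window held 3 matches to CCAAT, at 90, 62 and 59 bases before the start, the last 2 overlapping each other and the single CANNTG. The Srebf1 window held 1 CCAAT, 1 CANNTG and 2 GGGCGG, and the Acly window held 4 GGGCGG and no CCAAT or CANNTG. For Srebf1 the matches depend on the start chosen. Its window at chr11:60220628-60220877 held 2 GGGCGG and no CCAAT or CANNTG. Its window at chr11:60222582-60222831 held 1 CCAAT, 2 CANNTG and no GGGCGG. Over all 32851 windows of this length, CCAAT occurred in 33.8%, CANNTG in 66.2% and GGGCGG in 32.7%. Those shares are not matched for base content. G and C made up 69.2% (Fasn), 70.8% (Srebf1) and 68.8% (Acly) of the windows shown, against a median of 52.4% over all windows. Neither CACGTG (6.02% of windows, every match being also a CANNTG) nor TCACNCCAC, a shape of sterol response element (1.05%), occurred in the 3 windows shown. These matches are letters in a window and say nothing of binding in muscle.

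Expression of the members spanned a wide range and moved in both directions. Acacb was the most abundant, at 52.3% to 65.8% of the members' summed RPKM in a library, and lay above 94.6% of tested genes. Fasn, the synthase itself, lay above only 15.6% of them. Of the 10 members, 8 passed the filter of 0.5 RPKM in at least 2 libraries, each in both groups. Among these 8, 3 were higher in Nf1-KO (Acaca, Acacb, Thrsp), 4 were lower (Scd2, Srebf1, Fasn, Scd1) and Acly did not pass the test. Over all 10690 tested genes, 24.9% were higher and 25.5% lower, 50.3% in all, at a limma adjusted p under 0.05. The median log2 fold change was -0.17 over the 8 members and 0.00 over all tested genes. Changes of over 0.5 on the log2 scale were seen in Scd2, Srebf1 and Acaca, the last only just past that size, so 2 members were lower and 1 was higher by that much, against 4.69% and 5.07% of all tested genes (9.76% in both directions). The deposited values of the groups did not overlap in 3 members that were higher and 4 that were lower, against 49.8% and 27.4% of tested genes and 77.3% in both directions (76.3% after scaling). In whole muscle, fewer cells of a type and less RNA per cell cannot be told apart.

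**Figure D1:**
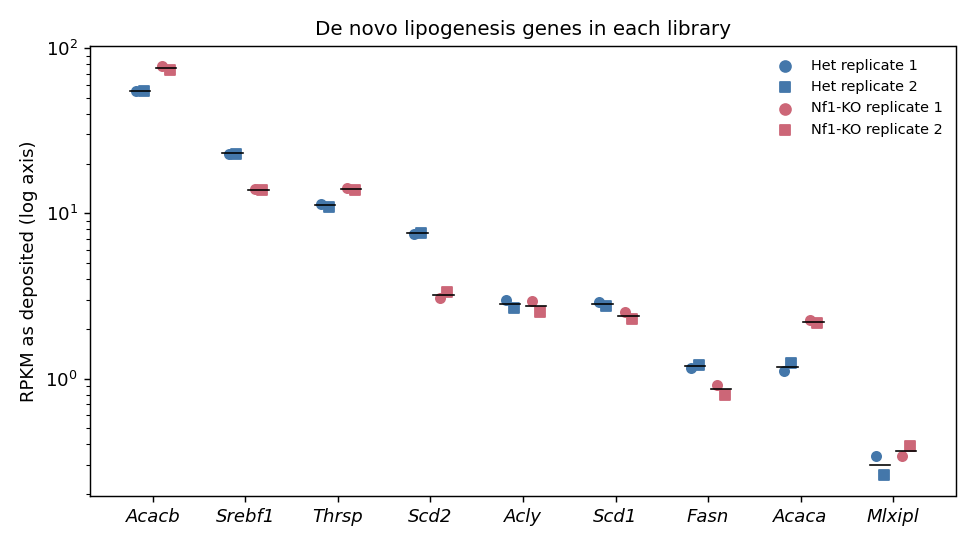
RPKM as deposited (log axis) of 9 members in each of the 4 libraries, with a bar at each group's mean; Elovl6, listed at 0 in every library, is not drawn. Scd2 and Srebf1 lie lower and Acaca and Acacb higher in both Nf1-KO libraries, while the groups overlap for Acly and Mlxipl.

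Both acetyl-CoA carboxylases rose. Acacb was 55.29 and 55.09 RPKM in Het, against 77.39 and 73.66 RPKM in Nf1-KO. The lower Nf1-KO library stood above both Het libraries. Means were 55.2 ± 0.14 and 75.5 ± 2.6 RPKM (SD, n = 2), and the log2 fold change was 0.35 (SE 0.03, limma adjusted p 0.00019). Acaca, the cytosolic form that supplies fatty acid synthesis, was 1.11 and 1.25 RPKM in Het and 2.25 and 2.17 RPKM in Nf1-KO. Its mean rose from 1.18 ± 0.099 to 2.21 ± 0.057 RPKM (SD, n = 2), and its log2 fold change was 0.50 (SE 0.06, limma adjusted p 0.00078). The ratio of the Acaca means was 1.87, and with a pseudocount of 0.1 the log2 fold change was 0.76. Acaca lies on chromosome 11 from 84129672 to 84401651 and Acacb on chromosome 5 from 114146535 to 114250761 (GRCm38). Of the 9464 words of 50 bases in the longest Acaca transcript, 52.6% also occur in Gm5182, a processed pseudogene on chromosome 12, so the Acaca value is uncertain as far as the counting split shared reads. No such word of Acacb occurs in another gene.

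The balance of the carboxylases was compared within each library, where scaling between libraries plays no part. Acacb exceeded Acaca 49.8-fold and 44.1-fold in Het and 34.4-fold and 33.9-fold in Nf1-KO. The ratio was lower in both Nf1-KO libraries, with means of 46.9 ± 4.1 and 34.2 ± 0.32 (SD, n = 2). An exact permutation test of 2 libraries against 2, two-sided, gave p = 0.333, the smallest it can give. Acacb thus remained the main carboxylase transcript in every library.

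No rise was called in Acly or Fasn, the member enzymes on either side of the carboxylases. Acly was 2.98 and 2.67 RPKM in Het and 2.95 and 2.52 RPKM in Nf1-KO, and the groups overlapped. Its log2 fold change was -0.11, with a 95% interval from -0.29 to 0.08 and a limma adjusted p of 0.29. Fasn was 1.16 and 1.21 RPKM in Het and 0.92 and 0.80 RPKM in Nf1-KO. Both Nf1-KO libraries lay below both Het libraries, with means of 1.19 ± 0.035 and 0.86 ± 0.085 RPKM (SD, n = 2). The log2 fold change was -0.28 (SE 0.061, limma adjusted p 0.0099), or -0.51 with a pseudocount of 0.1 (0.012). Without Het replicate 2 the adjusted p of Fasn was 0.052, and without Nf1-KO replicate 2 it was 0.064. Acaca stood level with Fasn in Het, at 0.957 and 1.03 times its RPKM, and above it in Nf1-KO, at 2.45 and 2.71 times. That ratio was chosen after its values were seen. Elovl6 was listed at 0 in all 4 libraries, as were 44.7% of all rows, and so gave no test. On GRCm38, Fasn lies on chromosome 11 from 120805846 to 120824547, Acly on chromosome 11 from 100476353 to 100528000 and Elovl6 on chromosome 3 from 129532355 to 129638495.

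Both desaturases fell. Scd2, the form of brain and many other tissues outside liver, was 7.49 and 7.64 RPKM in Het and 3.08 and 3.32 RPKM in Nf1-KO. This was the largest change among the members: the mean fell from 7.56 ± 0.11 to 3.2 ± 0.17 RPKM (SD, n = 2), with a log2 fold change of -1.11 (SE 0.048, limma adjusted p 1.1e-05). Scd1, the main form of liver and fat, was 2.92 and 2.74 RPKM in Het and 2.53 and 2.28 RPKM in Nf1-KO. Its log2 fold change was -0.24 (SE 0.061, limma adjusted p 0.018). The Scd1 call did not hold throughout: the adjusted p was 0.056 with unscaled values and 0.064 with no filter. It was 0.091 without Het replicate 1, 0.051 without Het replicate 2 and 0.11 without Nf1-KO replicate 2.

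Within a library, Scd1 stood at 0.39 and 0.359 of the Scd2 level in Het and at 0.821 and 0.687 in Nf1-KO. The mean ratio was 0.374 ± 0.022 in Het and 0.754 ± 0.095 in Nf1-KO (SD, n = 2), with an exact permutation p of 0.333, the smallest possible. Both genes lie on chromosome 19 (GRCm38), Scd2 from 44293674 to 44306864 and Scd1 from 44394455 to 44407879, beside their relatives Scd3 and Scd4. They share few long words: 4.66% of the 50-base words of Scd1 and 4.01% of those of Scd2 occur in another gene. Scd3 was at most 0.08 RPKM and Scd4 at most 0.03 RPKM in any library.

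**Figure D2:**
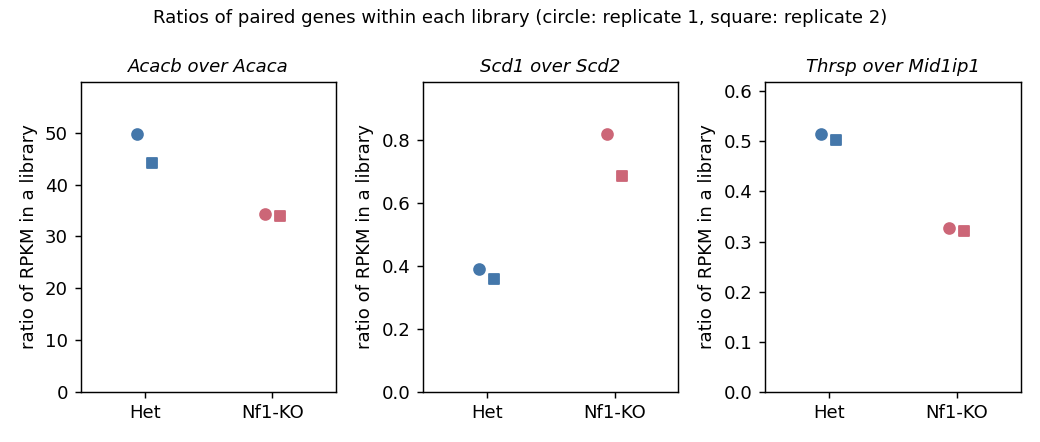
Ratio of 2 genes' RPKM within each library (linear axes from 0), for Acacb over Acaca, Scd1 over Scd2 and Thrsp over Mid1ip1. Each point is 1 library; in every panel the Nf1-KO libraries lie apart from the Het libraries, with Scd1 over Scd2 near 0.374 in Het and 0.754 in Nf1-KO.

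Of the transcriptional regulators, Srebf1 fell with a tight spread. It was 22.97 and 22.98 RPKM in Het and 13.96 and 13.80 RPKM in Nf1-KO, so the replicates of a group nearly coincided and the groups were far apart. The log2 fold change was -0.78 (SE 0.03, limma adjusted p 6.2e-06). Srebf1 (chromosome 11, 60199089 to 60222581, GRCm38) gives rise to SREBP-1a and SREBP-1c from different first exons, and gene values do not separate them. Its exons overlap those of Rai1 on the other strand, and 1.41% of its 50-base words occur there. Mlxipl was low, at 0.34 and 0.26 RPKM in Het and 0.34 and 0.39 RPKM in Nf1-KO, under the filter in every library and with overlapping groups.

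Thrsp, a small protein tied to lipogenic tissues, was 11.43 and 10.98 RPKM in Het and 14.22 and 13.77 RPKM in Nf1-KO. Both Nf1-KO libraries were higher, with a log2 fold change of 0.21 (SE 0.038, limma adjusted p 0.0046). Its relative Mid1ip1, which helps the carboxylases assemble into active filaments, rose from 22.21 and 21.86 RPKM to 43.57 and 42.99 RPKM (log2 fold change 0.85, limma adjusted p 2.8e-06). The ratio of Thrsp to Mid1ip1 was lower in Nf1-KO, at 0.326 and 0.32 against 0.515 and 0.502 in Het (exact permutation p 0.333, the smallest possible).

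The authors' deposited table, which has the layout of DESeq2 output, was set beside these values. The authors' deposited table holds 9 of the 10 members and calls 31.6% of its 13985 genes at an adjusted p under 0.05. By the authors' deposited table, members that were higher numbered 2 (Acaca 0.79, Acacb 0.35 on the log2 scale) and those that were lower 4 (Scd2 -1.35, Srebf1 -0.83, Fasn -0.58, Scd1 -0.34). Its adjusted p for Scd1 was 0.016, while 3 members did not pass in the authors' deposited table. Among these Thrsp differed from the result here: its log2 fold change in the authors' deposited table, 0.22, had nearly the same size but an adjusted p of 0.15. For Acly the authors' deposited table gave -0.15 (adjusted p 0.42), and for Mlxipl 0.17 (adjusted p 0.77). Mean normalized counts listed in the authors' deposited table were 27121 for Acacb, 484 for Fasn, 618 for Thrsp and 75.8 for Mlxipl, so precision differed widely between members.

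**Figure D3:**
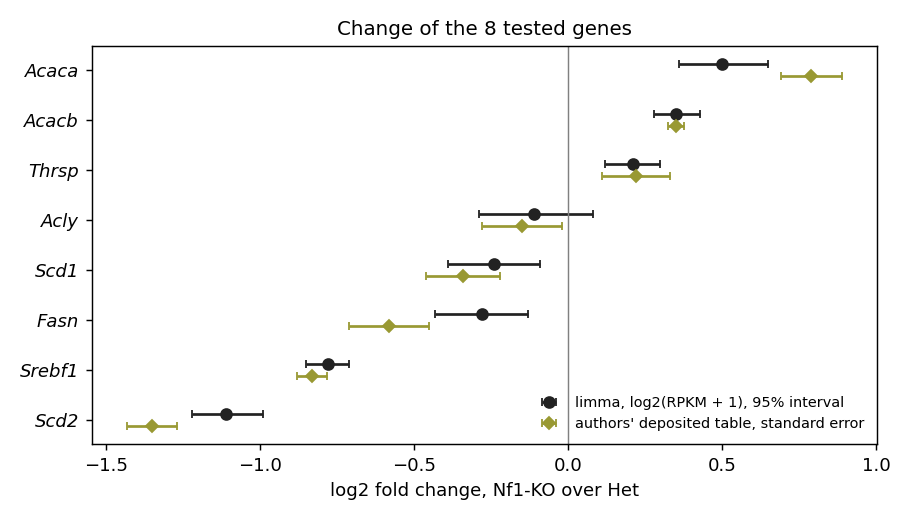
Log2 fold change of Nf1-KO over Het for the 8 tested members, from limma on log2(RPKM + 1) (circles, 95% interval) and from the authors' deposited table (diamonds, standard error). All 8 point the same way in both, from -1.11 for Scd2 to 0.50 for Acaca in the limma fit, and the low genes Fasn and Acaca show the larger gap between scales.

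The genes that supply carbon and NADPH to the pathway were divided. Of 9 listed and tested, 5 were higher and 1 was lower, against 24.9% and 25.5% of all tested genes. The other 3 did not pass. The list's median log2 fold change was 0.20, against 0.00 over all tested genes. Me1, the cytosolic malic enzyme that yields NADPH, was the lower one. It was 63.44 and 63.56 RPKM in Het and 30.40 and 31.41 RPKM in Nf1-KO, a log2 fold change of -1.11 (limma adjusted p 1.1e-06). Acss1 and Acss2, the mitochondrial and the cytosolic acetyl-CoA synthetase, both rose. Acss1 rose from 5.30 and 5.60 RPKM to 15.22 and 15.28 RPKM, and its log2 fold change of 1.25 was the largest of the list, while Acss2 rose by 0.47 on the log2 scale. Idh1, another source of cytosolic NADPH, rose by 0.54, and Pgd of the pentose phosphate pathway rose by 0.20. For Pgd the adjusted p in the authors' deposited table was 0.2. Mpc1, part of the mitochondrial pyruvate carrier, rose by 0.19 (0.29 unscaled). With no filter Pgd (limma adjusted p 0.074) and Mpc1 (0.062) did not pass. Pgd also lost its call without either Het replicate (0.11 and 0.053) and without Nf1-KO replicate 1 (0.10), and Mpc1 without Het replicate 2 (0.064). Slc25a1, which exports citrate for Acly, was 0.96 and 1.00 RPKM in Het and 0.94 and 1.06 RPKM in Nf1-KO, with a limma adjusted p of 0.67. G6pdx (log2 fold change 0.21, adjusted p 0.063) and Mpc2 (0.08, adjusted p 0.096) did not pass in limma.

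Most of the other genes of elongation and desaturation were too low to test. Of 17 listed, 8 passed the filter, 3 of them higher and 2 lower, while 50.3% of all tested genes were called. Their median log2 fold change was 0.11, and it was 0.00 with no filter and 0.06 without Nf1-KO replicate 2. Fads3, Fads1 and Elovl5 rose by 0.24, 0.18 and 0.16 on the log2 scale. In the authors' deposited table their adjusted p was 0.1, 0.23 and 0.28. Fads1 encodes a desaturase and Elovl5 an elongase of polyunsaturated fatty acids. None of these 3 calls was kept with no filter, where the limma adjusted p was 0.07, 0.08 and 0.097. Fads1 and Elovl5 also lost theirs when any 1 library was left out, and Fads3 without Het replicate 2 (0.084) or Nf1-KO replicate 1 (0.091). With a pseudocount of 0.1 the log2 fold changes of Fads3 and Fads1 were 0.45 and 0.30. Tecr, the last reductase of the elongation cycle, fell from 107.82 and 105.24 RPKM to 97.99 and 97.75 RPKM, by 0.21 on the log2 scale (0.12 unscaled). Hacd1, a dehydratase of the same cycle, was 0.54 and 0.60 RPKM in Het and 0.19 and 0.25 RPKM in Nf1-KO (log2 fold change -0.39, limma adjusted p 0.0025). It passed the filter only through the Het libraries, so its call is not independent of the filter. With a pseudocount of 0.1 its log2 fold change was -1.14, and the authors' deposited table gives -1.47 with an adjusted p of 0.077.

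Of 16 genes of transcription and control, all tested, 6 were higher and 6 lower, against 24.9% and 25.5% of all tested genes. The other 4 genes of this list did not pass. The median log2 fold change was 0.05, and it was 0.12 without Het replicate 1, 0.08 without Nf1-KO replicate 2, 0.03 with 1 RPKM asked in every library and 0.13 unscaled, where all tested genes had a median of 0.07. Mlycd, which breaks malonyl-CoA down again, was among the largest increases: it rose from 9.36 and 9.10 RPKM to 19.65 and 20.87 RPKM, a log2 fold change of 0.97 (limma adjusted p 8.4e-06). The ratio of Mlycd to Acacb, chosen after its values were seen, was 0.169 and 0.165 in Het and 0.254 and 0.283 in Nf1-KO. Nr1h3, the oxysterol receptor LXR alpha, which activates Srebf1 in liver, rose from 5.20 and 4.65 RPKM to 8.19 and 8.62 RPKM, by 0.59 on the log2 scale. Its partner Rxra fell by 0.32 and the ChREBP relative Mlxip fell by 0.33 on the log2 scale.

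The machinery that processes SREBP moved both ways. Scap, the escort of SREBP to the Golgi, rose by 0.29 on the log2 scale, while Insig1, which holds Scap back and is itself an SREBP target, was 4.51 and 5.13 RPKM in Het and 3.69 and 3.67 RPKM in Nf1-KO and fell by 0.39. The site proteases had log2 fold changes of 0.16 (Mbtps1, limma adjusted p 0.021) and -0.21 (Mbtps2, 0.028), and neither call was firm. Mbtps1 lost its call when any 1 library was left out (0.064 to 0.089), and Mbtps2 with no filter (0.08), without either Het replicate (0.12 and 0.07) and without Nf1-KO replicate 1 (0.16). Srebf2, the cholesterol-directed relative of Srebf1, had a log2 fold change of -0.20 (limma adjusted p 0.031) and Insig2 one of -0.18 (0.035). With unscaled values Srebf2 (adjusted p 0.10), Insig2 (0.22) and Mbtps2 (0.089) did not pass in limma, and the deposited values of Insig2 overlapped between the groups. Both Srebf2 and Insig2 also lost their calls with no filter (0.086 and 0.12), without Het replicate 1 (0.13 and 0.17) and without Nf1-KO replicate 1 (0.13 and 0.15), and Srebf2 without Nf1-KO replicate 2 (0.084). The call of Insig2 was also lost without a variance trend (0.072). Usf2, an E-box factor, rose by 0.12 (0.21 unscaled), with an adjusted p of 0.065 in the authors' deposited table. Without Het replicate 1 its log2 fold change was 0.1 and its call was not kept. Mlx, the partner of ChREBP, did not pass (log2 fold change 0.02, limma adjusted p 0.88).

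Mitochondria make fatty acids by a separate route whose product is the precursor of lipoate. Of its 7 genes, all tested, 4 were higher and 0 lower in limma, against 24.9% and 25.5% of all tested genes. All 7 had a log2 fold change above 0, so at an unadjusted p under 0.05 the number lower was 0 as well, and in each the deposited Nf1-KO values lay above both Het values, as they did in 49.8% of all tested genes. Those that did not pass were Mcat (log2 fold change 0.11, limma adjusted p 0.077), Cbr4 (0.07, 0.17) and Oxsm (0.03, 0.61). Hsd17b8 rose from 21.64 and 23.64 RPKM to 34.35 and 33.38 RPKM, by 0.47 on the log2 scale. Mecr, Acsf3 and Ndufab1 rose by 0.29, 0.20 and 0.17. For Acsf3 the adjusted p in the authors' deposited table was 0.087. Acsf3 lost its call with no filter (limma adjusted p 0.13), without either Het replicate (0.055 and 0.16) and without Nf1-KO replicate 1 (0.15). The median of the list was 0.17, or 0.26 unscaled. The cytosolic synthase Fasn had a log2 fold change of -0.28.

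**Figure D4:**
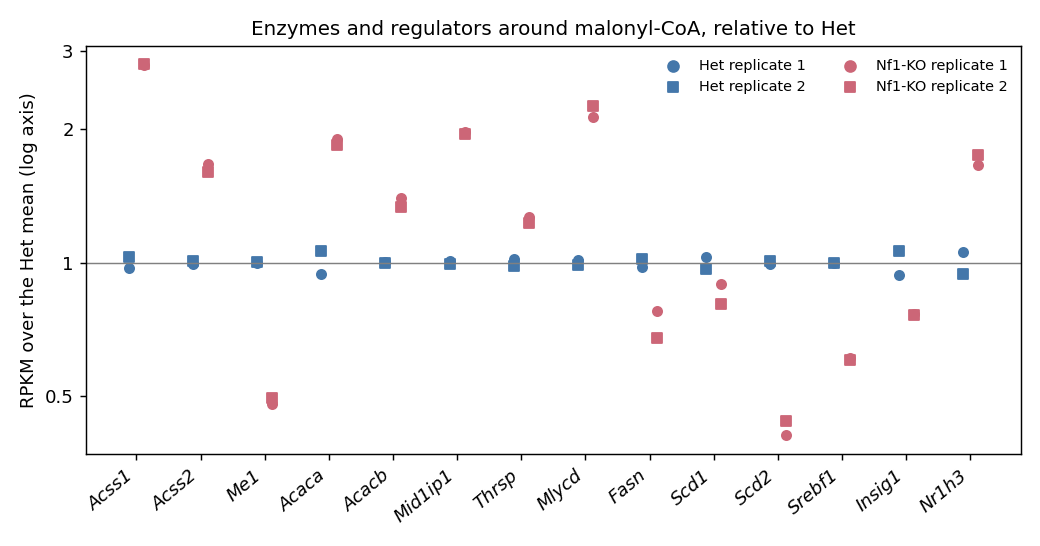
RPKM of 14 pathway genes in each library, divided by the mean of the Het libraries (log axis, 1 is the Het mean). Both Nf1-KO points lie above both Het points for Acss1, Acss2, the carboxylases, Mid1ip1, Thrsp, Mlycd and Nr1h3, and below for Me1, Fasn, Scd1, Scd2, Srebf1 and Insig1.

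Adipocytes and Schwann cells also make fatty acids, so markers of other cells were read beside the members. The 6 defining adipocyte genes, Adipoq, Plin1, Cidec, Cfd, Retn and Lep, summed to 8.29 and 9.47 RPKM in Het and to over 20 RPKM in both Nf1-KO libraries, 20.6 RPKM in the higher one, most of it Cfd (5.87 and 6.80 against 17.34 and 17.71 RPKM). The list did not move as a whole. Cfd and Cidec were higher past the test, Adipoq was 1.11 and 1.31 against 0.95 and 1.05 RPKM (limma adjusted p 0.057), and Plin1 stayed between 0.34 and 0.41 RPKM. Lep was 0.21 and 0.22 against 0.03 and 0.05 RPKM, and Retn 0.17 and 0.29 against 0.40 and 0.41 RPKM, both under the filter. Of 4 further adipocyte genes, Fabp4 and Lipe were higher, Pparg did not pass and Pck1 was under the filter. Ucp1, which defines brown adipocytes, was listed at 0 in all 4 libraries, while Cidea was 0.75 and 1.02 against 2.01 and 2.52 RPKM.

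Each of the 7 Schwann cell genes read here was higher in both Nf1-KO libraries, although 4 of them passed the filter only there, against 49.8% of all tested genes that were higher without overlap. Their sum was 8.34 and 8.67 RPKM in Het and 17.4 and 17.2 RPKM in Nf1-KO. Most of that sum was Pmp22 (5.20 and 5.55 against 10.53 and 10.72 RPKM). Macrophage and leukocyte genes summed to 9.00 and 9.20 against 28.4 and 28.3 RPKM, with Adgre1 listed at 0 in all 4 libraries. Lyz2 made up most of this (7.47 and 7.38 against 24.35 and 24.62 RPKM), and 3 of the 7 genes passed the filter. Fibroblast genes summed to 84.1 and 80.9 against 125 and 127 RPKM. Col1a1 held the largest rise among them (10.70 and 10.69 against 35.85 and 36.07 RPKM). Dcn was 54.94 and 53.01 against 62.09 and 61.86 RPKM. Endothelial genes summed to 76.0 and 76.4 against 82.0 and 80.9 RPKM, unscaled, and the list was divided. Pecam1 and Tek were higher past the test, Kdr and Tie1 were lower and Cdh5 did not pass. Of the blood genes Alas2 was 1.40 and 1.37 against 1.77 and 1.62 RPKM, while Hbb-b1 was listed at 0 in all 4 libraries and Hba-a1 in 3, so the blood content could not be read from them. Of the members, Scd2, Srebf1, Fasn and Scd1 were lower and Acaca, Acacb and Thrsp higher, while the Schwann cell markers were higher. The defining adipocyte markers did not all move one way. The part of these cells in the members' values was not tested.

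Strand is not given in the sources used here, so genes whose exons overlap others may hold reads of both. Among the members these were Srebf1, Scd2, Elovl6 and Mlxipl. In the supply list they were Acss1, Acss2, Me1, G6pdx and Mpc1, and in the elongation list Elovl1, Elovl3, Hacd2 and Hacd4. In the control list they were Scap, Mbtps2, Mlx, Mlxip, Nr1h3, Usf1, Usf2 and Mid1ip1, and in the mitochondrial list Mcat, Oxsm and Ndufab1. Hsd17b8 was not found by that symbol in the annotation, so its overlap was not checked. Fasn, Acaca, Acacb, Acly, Scd1 and Thrsp have no exon in common with another annotated gene.

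**Figure D5:**
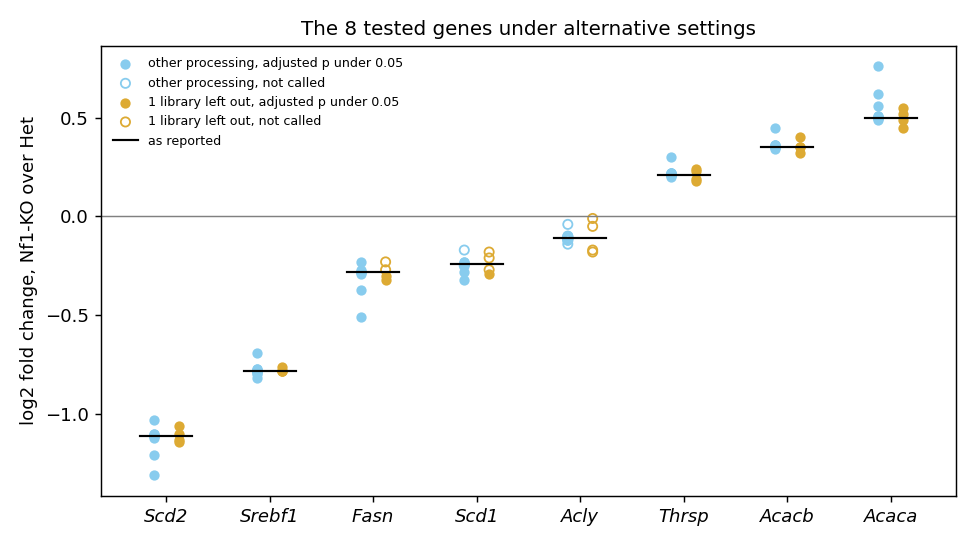
Log2 fold change of the 8 tested members as reported (bars), under other processing (blue) and with 1 library left out (yellow); open circles did not pass an adjusted p of 0.05. No member changed direction, and open circles occur for Fasn, Scd1 and Acly only.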

How the data were processed

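The 4 libraries (2 Het, 2 Nf1-KO) were made with a TruSeq version 2 kit, per the labels' protocols. STAR 2.4.2a, DESeq2 and mm9 are named in the submitters' processing notes, without roles. The counting program, annotation and strand are not given in the sources used here. The authors deposited 1 value per gene and library, with no unit named, read as RPKM from its sums (532315 to 547144). Per the file headers, the authors' comparison table holds mean normalized counts (signal), log2 fold changes, a test score and p-values.

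Of 34682 rows, 33 without a gene name were left out, and of repeated names only the copy of highest mean was used. Depth was estimated from the steps of low values in short genes. A filter asked for 0.5 RPKM or more in 2 or more libraries. Libraries were scaled by trimmed means, dropping 30% of log ratios and 5% of abundances from each end (factors 0.967 to 1.03). The test was limma 3.58.1 (R 4.3.3) with a variance trend, applied to log2 of scaled RPKM plus 1, with two-sided Benjamini-Hochberg adjustment over all tested genes at 0.05. The script was tested on simulated data. Ratios used an exact permutation test. Lists are described by counts and medians without a test. Besides the members, the genes named were Nf1, up to 4 per direction and list with the largest changes past the threshold, and a fixed set of regulators and markers, of which 1 marker is not reported here. The members, lists and tests were chosen with earlier results of these data known. Positions are from GENCODE M21 (GRCm38) and start windows from RefSeq (GRCm38.p6), matched by symbol, 8 of 10 members having a window. The files hold no coordinates. Same-numbered libraries did not deviate together. The labels give no batch, so no values within batches could be had.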

Additional observations from a re-analysis of the deposited data

How the results depend on the processing

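Across 16 alternative settings, none of 924 values turned direction past the threshold. A small change of sign in a gene not called either time was counted as kept, as for Slc25a1 (-0.03, and 0.01 unscaled). So counted, 833 kept their direction and their side of the threshold, or stayed within the bounds set for counts and ratios. Of 111 values of the members 104 stayed so, and 7 lost the call: those of Fasn without Het replicate 2 and without Nf1-KO replicate 2, and those of Scd1 given beside its result. Scd2, Srebf1, Acaca, Acacb and Thrsp kept their calls in every refit run. The log2 fold changes ran from -1.31 to -1.03 for Scd2, -0.82 to -0.69 for Srebf1, 0.45 to 0.76 for Acaca, 0.32 to 0.45 for Acacb and 0.18 to 0.30 for Thrsp. For Fasn they ran from -0.51, with a pseudocount of 0.1, to -0.23.

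Asking for an absolute log2 fold change over 0.5 left 542 genes higher and 501 lower, and of the members 1 higher and 2 lower. With 1 library left out, 2 to 4 members were lower and 3 higher. With no filter, 3 supply genes were higher, 0 elongation genes were higher and 3 control genes were lower. Unscaled values also left 3 control genes lower, and moved the median of all tested genes to 0.07 and the share of higher calls from 49.4% to 66.6%. With 1 RPKM asked in every library, 1 elongation gene was lower, since Hacd1 was then not tested. Fasn was not tested at that filter either, and 3 members were lower. With 1 library left out, elongation genes ran from 0 to 2 higher and from 1 to 2 lower, and control genes from 3 to 5 lower. The cause of the other losses was not tested. These fits have 1 library in a group, which is assumed to vary like the others.

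Libraries with the same number deviated from their group means with a correlation of -0.0179 over 10690 genes, so the replicate numbers are not taken as pairs. A replicate block gave 2644 higher and 2704 lower genes, with 3 members higher and 4 lower, and Nf1 (-0.18, adjusted p 0.054) and Fads1 (0.18, 0.054) lost their calls. Mlxipl, under the filter, and Elovl6, listed at 0, were not tested, and without read counts the files give no limit for a listed 0.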
